A study of Mus musculus with 18 samples.

Results

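Embryoid bodies exposed to thalidomide for 72 h were compared with control embryoid bodies of 48 h, a comparison across times that asks whether the exposed cultures resembled an earlier control stage or a different state. The comparison used every array of these 2 groups, 3 exposed and 3 control, which are 6 of the 18 arrays of the series. The control arrays of 24 h and 72 h (3 each) supplied the control time course against which both groups were placed.

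Mouse embryonic stem cells of strain C57BL/6 were differentiated as embryoid bodies, free-floating clusters of cells that exit the pluripotent state and start to make the germ layers. Per the labels, exposed cultures received 0.25 mM thalidomide (THD), a human teratogen that binds the ubiquitin ligase receptor cereblon, from day 3 onward, and controls received the vehicle, 0.25% DMSO. The design text, however, speaks of unexposed controls, and the control labels time the cells from the formation of the bodies, so the stage at which the control clock began is not settled by the labels. Biotin-labelled total RNA of each sample was read on 1 Affymetrix array, and the labels call the 3 samples of each group biological replicates. All groups share the strain, the medium before differentiation and the mixed cell content of an embryoid body, so that 1 RNA sample mixes several lineages. The 9 control titles and the 3 exposed titles of 24 h carry a re-analysis tag (12 arrays), and the exposed titles of 48 h and 72 h do not (6 arrays). The tag, the exposure and the later time of the exposed arrays cannot be told apart in the comparison of exposed 72 h with control 48 h arrays.

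During gastrulation, epiblast cells pass through the primitive streak and become mesoderm or endoderm, a step driven by Nodal and Wnt signals and by T-box and homeobox factors such as Eomes and Mixl1. Mesoderm then gives rise to heart muscle, smooth muscle and endothelium, whereas epiblast that does not enter the streak forms neural progenitors under Sox and basic helix-loop-helix factors. In differentiating embryoid bodies these programmes follow in that order, so genes of the streak decline as genes of contractile and vascular cells appear.

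Hairpins of the Mir302 cluster gave the 3 largest falls among the named genes. Mature sequences of the 4 related hairpins are printed, except the 3′ product of Mir302a, which was not at hand. The cluster lies within the gene Larp7 on chromosome 3. It is transcribed in epiblast-like and streak-stage cells, and its 3′ products repress inhibitors of the cell cycle and of Nodal signalling. Sequences are those of RefSeq (GRCm38.p6, plus strand), 5′ to 3′, with the seed (bases 2 to 8), which pairs with target transcripts, in capitals.
miR-302b-3p (chr3:127545275-127545297): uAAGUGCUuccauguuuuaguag
miR-302d-3p (chr3:127545665-127545687): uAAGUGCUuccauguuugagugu
miR-302c-3p (chr3:127545406-127545427): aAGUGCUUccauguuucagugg
miR-302a-5p (chr3:127545501-127545522): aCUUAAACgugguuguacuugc
miR-302b-5p (chr3:127545238-127545260): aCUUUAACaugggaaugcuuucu
miR-302c-5p (chr3:127545368-127545389): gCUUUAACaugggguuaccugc
miR-302d-5p (chr3:127545629-127545651): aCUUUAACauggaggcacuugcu
Among the products printed, 2 shared the seed AAGUGCU, miR-302b-3p and miR-302d-3p. The seed of miR-302c-3p, AGUGCUU, is the same run shifted by 1 base. The 5′ products of Mir302b, Mir302c and Mir302d shared CUUUAAC, and that of Mir302a had CUUAAAC. The array's probe sets carry the names of the hairpins and do not measure the mature products.

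Signals are the deposited log2 values, so a difference of 1 is a 2-fold change, and each change is given ± its standard error (SE) with limma's p-value adjusted over all 22180 genes. A gene is said to have risen or fallen where that adjusted p was under 0.05. The 10 largest changes named in each direction were taken only from called genes whose exposed 72 h and control 48 h arrays did not overlap. For those genes the separation from the 48 h controls is part of the choice and no separate result. Within the 48 h controls and within the exposed 72 h arrays, pairs of arrays correlated across genes at r = 0.9938 to 0.9953. Exposed replicate 3 differed from the other exposed arrays in several of the gene groups described, and values are therefore given for each array. The labels do not say that replicates came from separate cultures, so p-values measure the spread between these samples. With 3 arrays a group, the number of arrays limits the precision, and in bulk RNA fewer cells of a type and less RNA per cell cannot be told apart.

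Between exposed 72 h and control 48 h arrays, 932 of 22180 genes differed (4.2% called), of which 423 were higher in the exposed arrays (1.91% of genes tested) and 509 lower (2.29%). At least 2-fold changes were found for 77 of them, 47 up and 30 down. Without control 48 h replicate 3 the count was 481, without exposed replicate 2 it was 604, and without control replicate 1 or 2 it was 620 or 621. Of 133 called genes examined singly, among them all those named here, 74 passed without any one of the 6 arrays compared, and 59 lost their call when at least 1 of these arrays was left out. In a fit of these 6 arrays alone, 70 of the 133 no longer passed. The root mean square log2 difference over all genes was 0.197, against 0.227 between control 72 h and control 48 h and 0.152 between exposed 72 h and control 72 h arrays. These 3 differences share arrays pairwise. Control 72 h differed from control 48 h at 1448 genes (6.53% called), and exposed 72 h differed from control 72 h at 2 genes (0.00902% called).

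Each array was placed on a line from the mean of the 24 h controls (position 0) to the mean of the 72 h controls (position 1), over the 6095 genes that differed between those control times (27.5% called, 13.1% rising and 14.3% falling). The 48 h controls lay at 0.607, 0.582 and 0.493. The exposed 72 h arrays lay at 0.881, 0.877 and 0.725, all past the 48 h controls and all short of the 72 h controls, which lay at 0.982, 0.971 and 1.05. Their means were 0.828 ± 0.0888 and 0.561 ± 0.0598 (SD, n = 3 each), a difference of 0.267, with an exact two-sided permutation p of 0.1, the smallest that 3 against 3 arrays allow. The exposed arrays of 48 h, in comparison, lay at 0.527 ± 0.0416. The 72 h controls drew the line and helped choose its genes, so noise alone can place other arrays short of them. How much of the distance of the exposed 72 h arrays from the 72 h controls this makes up was not tested.

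Genes that fell and genes that rose along the control course were also placed separately. Over the 3181 genes that fell, the exposed 72 h arrays lay at 0.884 ± 0.0573, against 0.593 ± 0.0612 for the 48 h controls. Over the 2914 genes that rose they lay at 0.788 ± 0.12, against 0.538 ± 0.0621. Exposed replicates 2 and 3 lay further along for falling genes (0.944 and 0.83) than for rising genes (0.831 and 0.653), and replicate 1 did not (0.879 and 0.882). The 48 h controls had the same order of means, and the difference between falling and rising genes was not tested. Measured over all 22180 genes, exposed replicates 1 and 2 were closer to the 72 h control mean (root mean square difference 0.171 and 0.175) than to the 48 h control mean (0.232 and 0.229), whereas exposed replicate 3 was about equally far from both (0.231 and 0.234).

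**Figure D1:**
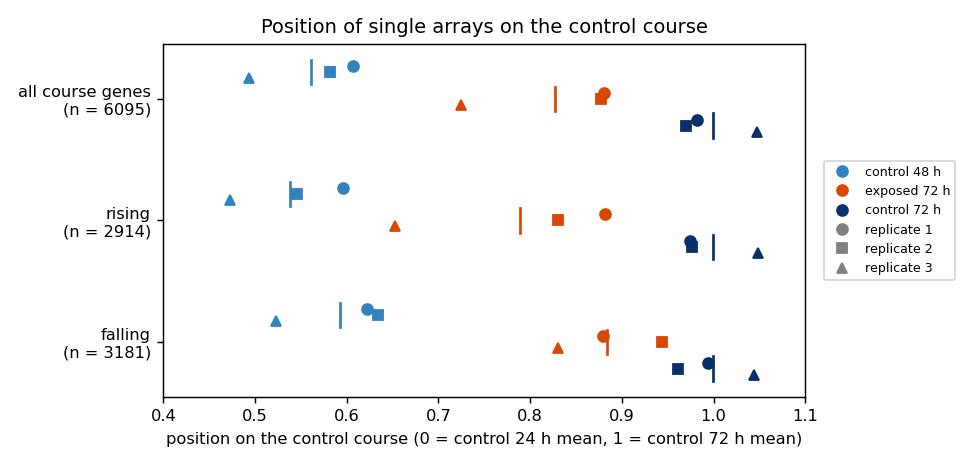
Position of single arrays (symbols by replicate, short lines for group means) on the control course, where 0 on the x axis is the mean of the 24 h controls and 1 the mean of the 72 h controls, for all 6095 course genes, the 2914 rising and the 3181 falling ones. The exposed 72 h arrays (orange) lie between 0.725 and 0.881 over all course genes, between the 48 h and the 72 h controls.

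The 4 Mir302 hairpins fell. Mir302a read 5.67, 5.19 and 5.52 in the 48 h controls and 3.21, 2.92 and 3.89 in the exposed 72 h arrays, a fall of 4.35-fold (log2 change -2.12 ± 0.23, adjusted p = 4.69e-05). The 72 h controls read 2.89, 3.13 and 2.99, and their range overlapped that of the exposed arrays. The groups of 48 h and of exposed 72 h did not overlap for Mir302a or for the other 3 hairpins, which the rule that named them required. Mir302b changed by -1.92 ± 0.29 (adjusted p = 0.00102), from 5.37, 5.52 and 5.81 to 3.20, 3.75 and 3.98. Mir302c changed by -2.05 ± 0.32 (adjusted p = 0.00109), from 5.57, 4.92 and 5.74 to 2.93, 2.95 and 4.19. Mir302d changed by -1.47 ± 0.29 (adjusted p = 0.00622), from 5.12, 4.95 and 5.17 to 3.61, 2.94 and 4.27. In each of the 4, exposed replicate 3 kept the highest signal of the exposed arrays. Mir367, the remaining hairpin of the cluster, was dim throughout and differed by -0.63 ± 0.28 (adjusted p = 0.27). Larp7, within which the cluster lies, encodes a component of the 7SK small nuclear ribonucleoprotein. It fell by 0.37 ± 0.08 on the log2 scale (adjusted p = 0.0119), and was not called without exposed replicate 2 or control 48 h replicate 3. Whether the hairpins share a transcript with Larp7 was not tested. The Mir302 calls were kept without any one array, but that of Mir302d was lost in the fit of the 6 arrays alone.

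In the controls, mean Mir302a signal was 6.74 at 24 h, 5.46 at 48 h and 3.00 at 72 h. In the exposed cultures the corresponding means were 5.66, 5.35 and 3.34. The exposed mean was thus below the control mean at 24 h, where both groups carry the tag, and close to it at 48 h.

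**Figure D2:**
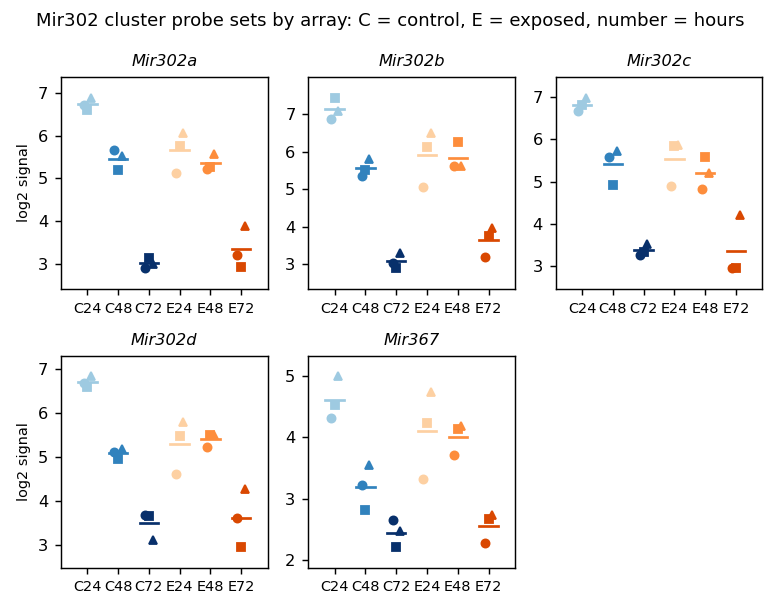
Log2 signal (y axis) of the 5 hairpins of the Mir302 cluster in all 6 groups (C, control; E, exposed; number, hours), with 1 symbol per array and a line at each group mean. The exposed 72 h arrays of Mir302a, at 2.92 to 3.89, lie below all 48 h controls (5.19 to 5.67) and near the 72 h controls (2.89 to 3.13).

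Of 25 measured genes of the primitive streak and nascent mesoderm, 11 fell and 0 rose (over all genes 2.29% fell). The median difference of the list was -0.33 against -0.004 over all genes. Fewer passed without control 48 h replicate 3 (5 members) or exposed replicate 2 (6 members), and 6 passed in the fit of the 6 arrays alone. Mixl1, a homeobox gene of the streak, read 7.26, 7.54 and 8.06 in the 48 h controls and 6.06, 5.47 and 5.74 in the exposed arrays, a fall of 3.64-fold (-1.86 ± 0.21, adjusted p = 0.000101). The 72 h controls read 5.65, 6.10 and 5.82, overlapping the exposed arrays. Lhx1, a LIM homeobox gene of the node and streak mesendoderm, went from 8.15, 8.06 and 8.28 to 6.82, 6.36 and 6.39 (-1.64 ± 0.13, adjusted p = 2.07e-06). Eomes, the T-box factor of definitive endoderm and cardiac mesoderm precursors, went from 7.25, 7.22 and 7.53 to 5.85, 6.26 and 5.19 (-1.57 ± 0.19, adjusted p = 0.000141). None of the exposed values of these 3 genes reached the lowest 48 h control, which the rule that named them required.

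The other streak genes that fell were Foxh1, the DNA-binding partner of Nodal's SMAD effectors (-1.14), the Wnt ligands Wnt3 (-0.70) and Wnt8a (-0.56), Msgn1 and Tbx6 of presomitic mesoderm (-0.75 and -0.55), the homeobox genes Cdx2 (-0.66) and Evx1 (-0.51) of posterior tissue, and the Notch ligand Dll3 (-0.62). Of the 11 genes, Mixl1, Lhx1, Eomes, Foxh1 and Wnt3 passed without any one array. Msgn1 lost its call without exposed replicate 2 or control replicate 3, and Wnt8a passed only without exposed replicate 1. Tbx6, Cdx2, Dll3 and Evx1 lost theirs in 3 or 4 of the 6 leave-outs, each time including that of control 48 h replicate 3. Between control 48 h and control 72 h arrays, 13 of the 25 fell (2.9% of all genes fell). The median difference of the list was -0.46 in that control step, and 0.07 between exposed 72 h and control 72 h arrays, where 0 members were called. For Mixl1, Lhx1 and Eomes the exposed 72 h minus control 72 h differences were -0.10 ± 0.21, 0.07 ± 0.13 and 0.18 ± 0.19. Mesp1, an early marker of cardiac mesoderm, and Nodal itself differed from the 48 h controls by -0.36 and -0.30 without passing the test.

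Of 13 measured markers of the post-implantation epiblast, 4 fell and 0 rose (over all genes 1.91% rose and 2.29% fell). Fgf5, a growth factor of the formative epiblast, read 7.59, 7.56 and 7.78 in the 48 h controls and 5.81, 5.25 and 6.15 in the exposed arrays (-1.90 ± 0.19, adjusted p = 3.15e-05). The lack of overlap was required by the rule that named Fgf5. The de novo DNA methyltransferase Dnmt3b went from 9.96, 10.03 and 10.06 to 8.95, 8.77 and 9.08 (-1.08 ± 0.09, adjusted p = 8.01e-06). Lef1, a Wnt-regulated transcription factor, and Zic2 changed by -0.96 and -0.42, and Zic2 passed only when control 48 h replicate 2 was the array left out. Otx2, Pou3f1 and Foxd3 differed by -0.09, 0.12 and -0.02, and were not called.

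Of 25 pluripotency genes, 4 fell and 1 rose (over all genes 1.91% rose and 2.29% fell). Tdgf1 (Cripto), the co-receptor of Nodal, read 8.09, 7.83 and 8.41 in the 48 h controls and 6.90, 7.14 and 6.15 in the exposed arrays (-1.38 ± 0.21, adjusted p = 0.00103). All exposed values also lay below the 72 h controls, at 7.56, 7.74 and 7.57, although that difference was not called (-0.89 ± 0.21, adjusted p = 0.147). Nanog fell (-0.98 ± 0.25, adjusted p = 0.0324), from 6.35, 6.29 and 6.20 to 4.98, 4.80 and 6.13, so that exposed replicate 3 stayed just under the lowest 48 h control. Of the 6 leave-outs, Nanog was called only in that of exposed replicate 3. Sall4 and Tbx3 fell by 0.39 and 0.62 on the log2 scale. The gene that rose was Sox2, which also marks neural progenitors: 8.51, 8.31 and 8.25 in the 48 h controls against 9.29, 9.13 and 9.89 in the exposed arrays (1.08 ± 0.17, adjusted p = 0.00158). Pou5f1, the core factor Oct4, differed by -0.23 and was not called.

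Among other falling genes of the largest change, Cfc1 (Cryptic), a Nodal co-receptor of the same family as Tdgf1, went from 8.06, 7.97 and 7.79 to 6.35, 6.51 and 6.40 (-1.53 ± 0.08, adjusted p = 3.19e-08). Crybg1 fell by 1.44 ± 0.12 on the log2 scale (adjusted p = 6.57e-06). Of 11 definitive endoderm genes, 3 fell (2.29% over all genes) and all 11 had lower exposed means, with a median of -0.27. The 3 were Sox17, the endoderm SOX factor (-0.69 ± 0.08, adjusted p = 0.000113), Trh, the precursor of thyrotropin-releasing hormone (-0.92 ± 0.12, adjusted p = 0.000265), and Cer1, a secreted Nodal and BMP inhibitor (-1.36 ± 0.26, adjusted p = 0.0056). Their control 72 h minus control 48 h differences were -0.70, -1.24 and -1.89.

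Of 20 contractile genes of the heart sarcomere, 17 had higher exposed means than the 48 h controls. Of the 20, 10 rose against the 48 h controls and 0 fell (1.91% of all genes rose), with a median difference of 0.47. In the control step from 48 h to 72 h, 15 rose (3.62% of all genes rose), with a median of 1.1. The median of exposed 72 h minus control 72 h was -0.67, and 0 of the 20 were called there. Without exposed replicate 1, exposed replicate 2 or control 48 h replicate 3, only 4 of the 20 passed, and without exposed replicate 3, 11 passed. In the fit of the 6 arrays alone 0 passed.

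Actc1, cardiac alpha-actin, read 6.27, 5.55 and 5.84 in the 48 h controls, 8.73, 8.28 and 6.95 in the exposed arrays and 9.46, 9.40 and 9.46 in the 72 h controls. The 3 groups did not overlap, and exposed replicate 3 was nearest the 48 h controls. The rise over the 48 h controls was 4.29-fold (2.10 ± 0.33, adjusted p = 0.0013), and the difference from the 72 h controls was -1.45 ± 0.33 (adjusted p = 0.13). Ttn, the giant spring protein titin, read 6.04, 5.88 and 5.43, then 8.11, 8.06 and 6.66, then 9.05, 8.94 and 9.14 in the same order (1.83 ± 0.27 over the 48 h controls, adjusted p = 0.000706). Myh6, the atrial heavy chain of myosin, read 5.13, 4.83 and 5.31, then 6.86, 6.51 and 5.66, then 7.74, 7.64 and 7.60 (1.25 ± 0.21, adjusted p = 0.00231). Both genes had all exposed arrays between the control stages.

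The remaining sarcomere genes that rose were Myl7 (1.46), Tnnt2 (1.35), Myh7 (1.22), Mybpc3 and Tnni1 (0.76 each), Myl4 (0.75) and Myl3 (0.43). Their adjusted p-values ran close to the threshold for several members, at 0.0105 for Tnnt2, 0.0117 for Myl7 and 0.0318 for Tnni1. Actc1, Ttn, Myh6 and Myh7 passed without any one array. Myl7, Tnnt2, Mybpc3 and Myl4 lost their calls without exposed replicate 1, exposed replicate 2 or control replicate 3, and Tnni1 and Myl3 passed only without exposed replicate 3. Tnnt2 read 10.15, 10.09 and 8.70 in the exposed arrays and 8.49, 8.56 and 7.83 in the 48 h controls. Members that were not called included Tnnc1 (0.52), Nebl (0.41), Tnni3 (-0.03) and Actn2 (-0.01).

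The promoters of Actc1 and Myl7 are printed because both genes rose and both windows hold a CArG box, the motif bound by serum response factor, shown in capitals. Each window runs from 250 bases before to 50 after the transcript start (RefSeq, GRCm38.p6, minus strand for both), 5′ to 3′ in the direction of transcription.
Actc1 (chr2:114052826-114053125): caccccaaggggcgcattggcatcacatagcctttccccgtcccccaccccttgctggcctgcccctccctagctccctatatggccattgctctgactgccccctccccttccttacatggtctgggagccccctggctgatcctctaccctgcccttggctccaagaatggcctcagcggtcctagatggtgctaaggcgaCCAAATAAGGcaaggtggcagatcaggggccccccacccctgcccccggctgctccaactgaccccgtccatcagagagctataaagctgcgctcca
Myl7 (chr11:5898733-5899032): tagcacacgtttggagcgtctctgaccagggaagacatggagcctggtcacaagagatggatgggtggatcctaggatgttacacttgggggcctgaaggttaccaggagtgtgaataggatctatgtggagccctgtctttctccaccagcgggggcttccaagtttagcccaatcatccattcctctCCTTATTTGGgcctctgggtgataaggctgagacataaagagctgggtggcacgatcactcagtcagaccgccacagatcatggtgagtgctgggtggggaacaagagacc
The search for the CArG box, whose pattern reads the same on both strands, found it in 5 of 19 sarcomere genes with a window (26.3%) and in 2 of 11 smooth muscle genes (18.2%). Over all 27025 genes with a window the share was 1.81%. A match describes these letters and does not show binding.

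Of 13 cardiac transcription factors measured, 0 rose and 1 fell (over all genes 1.91% rose and 2.29% fell). Without exposed replicate 3 there were 2 called, 1 in each direction, and in the fit of the 6 arrays alone 0. The gene that fell was Hand1, a basic helix-loop-helix factor of cardiac and extraembryonic mesoderm, at 8.30, 8.52 and 8.16 in the 48 h controls and 7.63, 7.65 and 6.68 in the exposed arrays (-1.0 ± 0.21, adjusted p = 0.00968). It was also below the 72 h controls in every exposed array (7.88, 7.98 and 8.11), without being called there (-0.67 ± 0.21, adjusted p = 0.299). Nkx2-5, Gata4, Tbx5 and Mef2c differed from the 48 h controls by 0.26, -0.04, -0.04 and 0.16. The median of the list was -0.04, against 0.32 in the control step from 48 h to 72 h.

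Among 12 genes of calcium and ion handling, 1 rose and 1 fell (over all genes 1.91% rose and 2.29% fell), and the number called ran from 0 without exposed replicate 1 to 4 without exposed replicate 3, with 1 without exposed replicate 2 or any of the 48 h controls. Cacna1c, the pore subunit of the cardiac L-type calcium channel, read 6.00, 5.93 and 5.83 in the 48 h controls, 6.59, 6.52 and 6.15 in the exposed arrays and 7.19, 7.14 and 7.29 in the 72 h controls. It rose over the 48 h controls (0.50 ± 0.11, adjusted p = 0.0177) and was lower than in the 72 h controls (-0.79 ± 0.11, adjusted p = 0.0328). The other gene that differed from the 72 h controls was Ryr2, the calcium release channel of the sarcoplasmic reticulum (-0.84 ± 0.12, adjusted p = 0.0328). Its exposed signals of 6.60, 6.65 and 6.25 overlapped the 48 h controls (6.30, 6.22 and 5.86), from which it was not called (0.38 ± 0.12, adjusted p = 0.0867). Gja1, a gap junction protein, fell by 0.29 on the log2 scale, with a control 72 h minus control 48 h difference of -0.31. The rise of Cacna1c was lost without exposed replicate 1 or 2 or control 48 h replicate 2 or 3, and the fall of Gja1 without exposed replicate 1 or control replicate 1.

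Of 14 smooth muscle genes, 2 rose (1.91% over all genes). Acta2, smooth muscle alpha-actin and an early actin of embryonic heart, read 8.03, 7.96 and 7.82 in the 48 h controls, 10.41, 10.09 and 8.60 in the exposed arrays and 10.88, 10.94 and 11.14 in the 72 h controls. It rose by 1.76 ± 0.30 (adjusted p = 0.00211). Mylk, myosin light chain kinase, rose by 0.64 ± 0.13 (adjusted p = 0.00783), whereas its control 72 h minus control 48 h difference was 0.10. Tagln, Cnn1 and Myh11 differed by 0.32, -0.09 and 0.14, none of them called.

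Of 17 measured endothelial genes 8 rose and 1 fell (over all genes 1.91% rose and 2.29% fell), with a median of 0.37. In the control step from 48 h to 72 h the median was 0.81 and 13 rose (3.62% of all genes rose). Without exposed replicate 3, 12 members were called in place of 9, and in the fit of the 6 arrays alone 2 were. Cdh5, the endothelial cadherin, read 6.32, 6.29 and 6.13 in the 48 h controls, 8.76, 8.37 and 7.46 in the exposed arrays and 9.14, 9.22 and 9.51 in the 72 h controls (1.95 ± 0.23 over the 48 h controls, adjusted p = 0.000113). Emcn, the sialoglycoprotein endomucin, gave the largest rise of all genes named by the rule, 4.83-fold (2.27 ± 0.33, adjusted p = 0.000737). Its exposed values of 6.92, 5.88 and 4.77 spread widely, all above the 48 h controls at 3.73, 3.56 and 3.46. The transcription factors Erg and Sox18 rose by 1.22 and 1.15, and the receptors Tek and Tie1 by 1.32 and 0.75. Egfl7 and Plvap rose by 0.65 and 0.90. Plvap passed only without exposed replicate 3 among the 6 leave-outs, and Tie1 lost its call without exposed replicate 1 or 2 or control replicate 1 or 3.

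The endothelial gene that fell was Flt1, VEGF receptor 1 (-0.52 ± 0.10, adjusted p = 0.00626). It read 7.62, 7.66 and 7.79 in the 48 h controls and 7.41, 7.14 and 6.96 in the exposed arrays, without overlap. Kdr and Etv2, which mark the haemangioblast stage, differed by 0.31 and -0.03 and were not called. Outside the list, the ETS factor Fli1 rose (1.81 ± 0.22, adjusted p = 0.000179), and so did Clec1b, a C-type lectin receptor known from platelets, from 4.38, 4.16 and 4.03 to 6.81, 6.42 and 5.72 (2.13 ± 0.20, adjusted p = 1.79e-05). Of 13 primitive blood genes 0 were called, and the globin genes Hbb-bh1 and Hba-x differed by 0.22 and 0.05.

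Of 23 mesenchyme and matrix genes 3 rose (1.91% over all genes). Lum, the proteoglycan lumican, went from 3.99, 4.09 and 3.66 to 6.61, 5.67 and 5.06 (1.87 ± 0.28, adjusted p = 0.000881). Col3a1, a fibrillar collagen, changed by 1.02 ± 0.24 (adjusted p = 0.0195), and the intermediate filament gene Vim by 0.33, with an adjusted p of 0.0497. Only 1 member of the list was called without exposed replicate 2, control replicate 1 or control replicate 3, and 5 were called without exposed replicate 3. Vim passed only in the latter of the leave-outs, and Col3a1 lost its call without exposed replicate 1 or 2 or control replicate 1 or 3. Nr2f2, a nuclear receptor of venous endothelium and atrial mesoderm, rose to the same level in all exposed arrays, 7.91, 7.78 and 7.89, from 6.47, 6.20 and 5.80 (1.71 ± 0.20, adjusted p = 0.000113). The 72 h controls of Nr2f2 read 7.79, 7.93 and 7.73.

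Of 19 measured neural progenitor genes, 17 had higher exposed means than the 48 h controls. Of the 19, 8 rose and 0 fell (over all genes 1.91% rose and 2.29% fell), with a median of 0.45. In the control step from 48 h to 72 h, 0 rose and 0 fell, with a median of 0.06. The median of exposed 72 h minus control 72 h was 0.49, where limma called 0 of the 19. The count against the 48 h controls was 4 without exposed replicate 3 or control replicate 1, and 5 without control replicate 2 or 3. In the fit of the 6 arrays alone it was 3.

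Olig2, a basic helix-loop-helix factor of ventral neural progenitors, read 5.75, 5.48 and 5.27 in the 48 h controls, 6.89, 7.11 and 7.15 in the exposed arrays and 6.34, 6.44 and 5.39 in the 72 h controls. It rose 2.93-fold over the 48 h controls (1.55 ± 0.21, adjusted p = 0.000413), and the difference from the 72 h controls was 0.99 ± 0.21 (adjusted p = 0.113). The exposed arrays lay above both control groups, although the 24 h controls had a mean of 7.28. Neurod4, a proneural factor, read 3.87, 3.99 and 4.46, then 5.57, 5.65 and 6.21 in the exposed arrays, then 4.89, 4.85 and 4.33 in the 72 h controls (1.71 ± 0.22 over the 48 h controls, adjusted p = 0.000237). Dcx, doublecortin of migrating neurons, read 3.44, 3.79 and 3.76, then 4.45, 4.39 and 4.97, then 3.98, 3.87 and 3.70 (0.93 ± 0.15, adjusted p = 0.00164). For both, every exposed array was above every control array of either stage.

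Hes5, a Notch target that keeps neural progenitors from differentiating, read 5.66, 5.49 and 5.82 in the 48 h controls and 6.55, 6.76 and 7.75 in the exposed arrays (1.37 ± 0.24, adjusted p = 0.00324). The 72 h controls, at 6.54, 6.52 and 5.74, lay just under the exposed arrays. Nes, the intermediate filament nestin of progenitors, rose by 0.98 and Pax6, a homeobox factor, by 0.81. Tubb3, the neuronal tubulin, rose by 0.88, Neurog1 by 0.70 and Sox21 by 0.39. Without exposed replicate 3, Pax6, Sox21, Tubb3 and Neurog1 no longer passed (adjusted p = 0.0788, 0.1, 0.131 and 0.158). Each of these 4 also lost its call in the leave-out of control replicate 1 and of at least 1 other array, whereas Olig2, Dcx, Hes5 and Nes passed without any one array. Fabp7, Sox1 and Zic1 were higher by 0.92, 0.50 and 0.45 and were not called, and the neural crest factors Pax3 and Pax7 differed by 0.16 and -0.06.

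The Hes5 promoter window is printed because the data show a rise of this Notch target, and both occurrences of the core motif of the Notch effector RBPJ (GTGGGAA, searched on both strands) are in capitals. It is the same kind of window from RefSeq (GRCm38.p6, plus strand), 5′ to 3′.
Hes5 (chr4:154960673-154960972): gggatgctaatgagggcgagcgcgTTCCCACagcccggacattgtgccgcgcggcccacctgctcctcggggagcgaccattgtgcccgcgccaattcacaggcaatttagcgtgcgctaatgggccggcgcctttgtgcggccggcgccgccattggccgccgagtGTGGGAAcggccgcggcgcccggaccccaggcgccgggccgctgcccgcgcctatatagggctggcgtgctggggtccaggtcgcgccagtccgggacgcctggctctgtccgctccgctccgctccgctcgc
The motif was found in 4 of 12 Notch genes with a window (33.3%), in 1 of 16 neural progenitor genes (6.25%) and in 7.25% of all genes with a window. Of 15 measured Notch pathway genes 2 rose, Hes5 and the feedback inhibitor Nrarp (0.50), and 0 fell (over all genes 1.91% rose and 2.29% fell), with 1 called without control 48 h replicate 2 or 3. Nrarp lost its call without exposed replicate 3 (0.33, adjusted p = 0.128) or any one of the 48 h controls. Hes1, Hey1 and Dll1 differed by -0.04, 0.16 and 0.18.

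**Figure D3:**
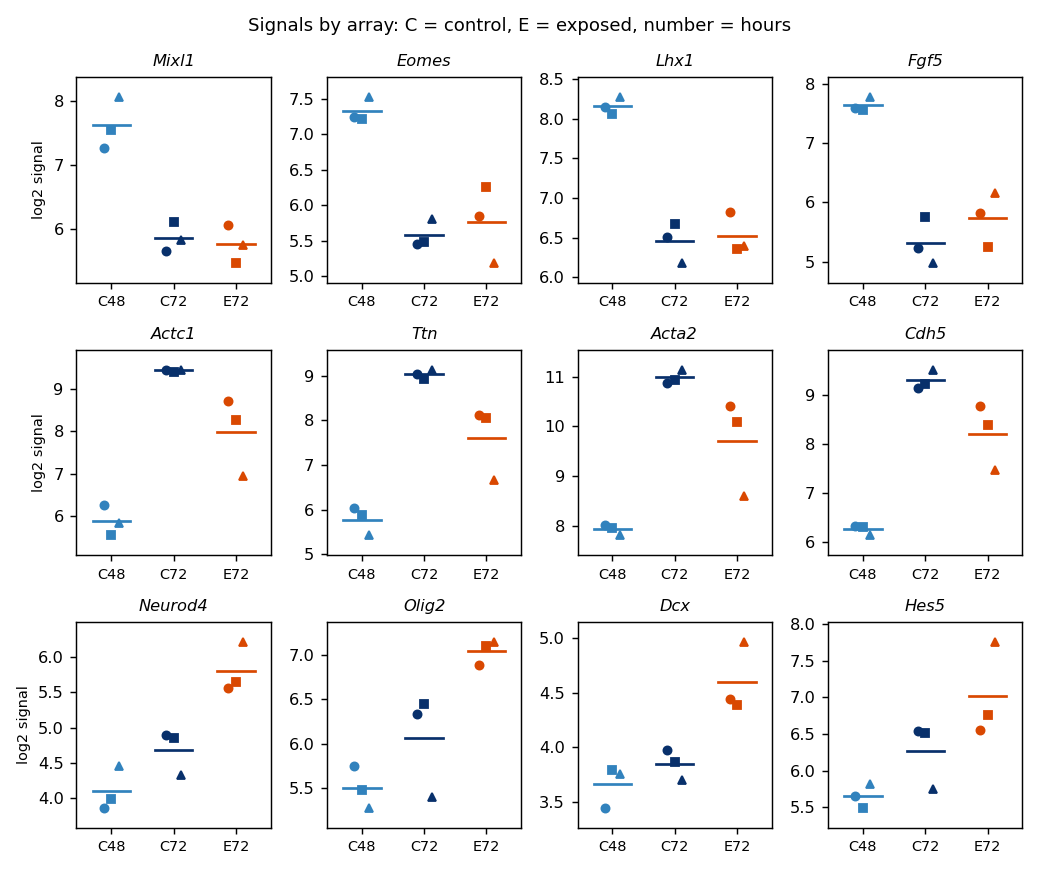
Log2 signal (y axis) of 12 genes in the 48 h controls (C48), the 72 h controls (C72) and the exposed 72 h arrays (E72), with 1 symbol per array and a line at each group mean. Streak and epiblast genes (top panels) lie near the 72 h controls, Actc1, Ttn, Acta2 and Cdh5 lie between the control stages (for Actc1, 6.95 to 8.73 against at most 6.27 and at least 9.40), and the neural genes in the bottom panels have exposed means above both.

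The mean levels of the cardiac and neural groups were set side by side for each array. The mean signal of the 20 sarcomere genes was 6.21, 6.07 and 5.96 in the 48 h controls, 7.0, 6.96 and 6.34 in the exposed arrays and 7.34, 7.37 and 7.45 in the 72 h controls. The mean of the 19 neural genes was 6.13, 6.25 and 6.14, then 6.60, 6.58 and 7.03, then 6.32, 6.38 and 5.95. Exposed replicate 3 thus had the lowest sarcomere and the highest neural mean of the exposed arrays. Among the 72 h controls, replicate 3 had the highest sarcomere and the lowest neural mean. The part of single arrays in the neural difference was not tested beyond leaving each out in turn.

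**Figure D4:**
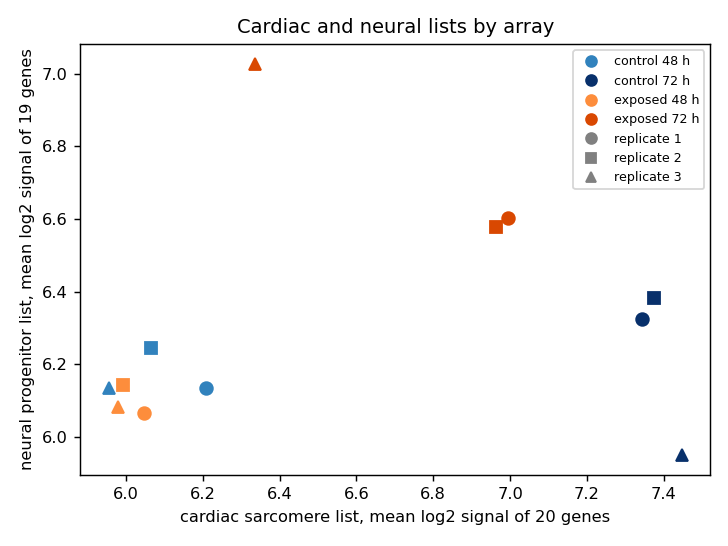
Mean log2 signal of the 20 sarcomere genes (x axis) against that of the 19 neural progenitor genes (y axis), 1 symbol per array, coloured by group. Exposed replicate 3 (triangle) lies at 6.34 on the sarcomere axis and 7.03 on the neural axis, and the other exposed arrays lie at 6.96 and 7.0 and at 6.58 and 6.60.

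Single genes were then tested for a mean between the control stages or outside both. A gene lies between if it differed from the 48 h and from the 72 h controls in opposite directions, and outside if it differed from both in the same direction, with the larger of both p-values adjusted over all genes. In limma 0 of 22180 genes passed for between and 0 for outside (0% called for each). Adding the 24 h controls to the outside test also gave 0. Only a gene called against the 72 h controls can pass either test, and there were 2 such genes, Cacna1c and Ryr2. Cacna1c was called in both differences taken singly, in opposite directions, but not once the larger p was adjusted over all genes. The smallest adjusted p was 0.467 for between and 0.734 for outside. At an unadjusted p under 0.05 there were 206 genes between, of which 170 had exposed means above the 48 h controls and 36 below. There were 486 outside, 252 above and 234 below. Both differences use the same exposed arrays, whose noise moves them in the same direction and favours outside over between. These counts therefore cannot be weighed against each other. Under the other settings tried, the adjusted counts were again 0. The unadjusted counts ran from 136 to 244 for between. For outside they reached 649 genes, and 682 probe sets when all 41345 probe sets were tested singly. The fewest outside genes were found when control 72 h replicate 3 was left out.

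As a description, the between genes of lowest p were led by muscle and vascular genes, Myh6 (unadjusted p = 2.11e-05), the scavenger receptor Stab1 (4.35e-05), Ttn (6.33e-05), Mybpc3 (0.000185) and Cdh5 (0.000197). The genes above both stages with the lowest p were led by neural genes, the protocadherin Pcdh8 (8.5e-05), the neuronal factor Nhlh1 (9.46e-05), Neurod4 (9.92e-05), Dcx (0.000136), the Wnt modulator Sfrp2 (0.000169) and Olig2 (0.000246). Below both stages, the sulphate transporter Slc13a4 (0.000242), the zinc finger gene Rsl1 (0.00057) and Tdgf1 (0.000609) had the lowest p. None of these single genes passed the adjusted test.

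**Figure D5:**
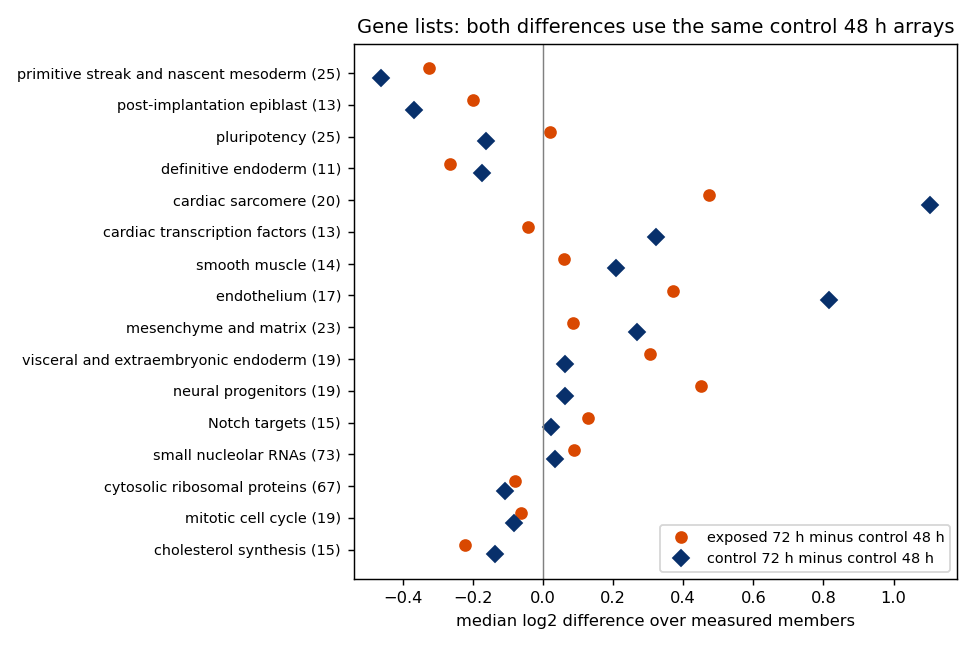
Median log2 difference (x axis) over the measured members of each gene list (number in brackets) for exposed 72 h minus control 48 h (circles) and control 72 h minus control 48 h (diamonds), which share the 48 h control arrays. Streak genes have medians of -0.33 and -0.46, sarcomere genes of 0.47 and 1.1, and neural progenitor genes of 0.45 and 0.06.

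Of 19 visceral and extraembryonic endoderm genes, 4 rose and 1 fell (over all genes 1.91% rose and 2.29% fell), with a median of 0.30. Afp, alpha-fetoprotein of visceral endoderm and yolk sac, read 5.56, 5.55 and 6.26 in the 48 h controls and 7.41, 7.33 and 7.37 in the exposed arrays (1.58 ± 0.26, adjusted p = 0.00192), inside the range of the 72 h controls at 7.0, 6.84 and 8.23. Rbp4, the plasma carrier of retinol, rose by 0.81 ± 0.11 (adjusted p = 0.000376), and Apoa2 and Lamb1 rose by 0.48 and 0.30. Cubn, an endocytic receptor of visceral endoderm, fell by 0.50 on the log2 scale. Without any one of the 48 h controls, 3 members were called. Apoa2 passed only without control replicate 3, Lamb1 only without exposed replicate 1 or 2, and Cubn lost its call without exposed replicate 1 or control replicate 3.

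Of 13 measured genes of retinoic acid handling, 3 rose and 2 fell (over all genes 1.91% rose and 2.29% fell), and without control 48 h replicate 1 or 3 there were 3 called. Crabp1, a cytoplasmic carrier of retinoic acid, read 8.20, 8.08 and 8.28 in the 48 h controls and 9.60, 9.33 and 10.35 in the exposed arrays (1.57 ± 0.24, adjusted p = 0.00102). Crabp2, the carrier that delivers retinoic acid to its nuclear receptors, went from 7.87, 7.99 and 7.93 to 9.30, 9.14 and 10.05 (1.57 ± 0.23, adjusted p = 0.000713). Exposed replicate 3 was again the highest for both, and neither group overlapped the 48 h controls. Cyp26b1, which degrades retinoic acid, rose by 0.54 ± 0.11 (adjusted p = 0.0109). Aldh1a2, which makes retinoic acid in mesoderm, fell by 0.98 ± 0.22 on the log2 scale (adjusted p = 0.0174), and Hoxb1, a direct target, by 1.32 ± 0.21 (adjusted p = 0.00151). In the control step these differences were 0.69 for Crabp1, 0.82 for Crabp2, 0.10 for Cyp26b1, -0.83 for Aldh1a2 and -1.06 for Hoxb1. Cyp26b1 was not called without control replicate 1 or 3, and Aldh1a2 not without these or exposed replicate 3. Hoxb1 was the 1 gene called among 36 Hox genes, of which 2 were called without control replicate 3.

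Of 17 BMP pathway genes, 5 fell and 1 rose (over all genes 1.91% rose and 2.29% fell). Bmp4, which induces mesoderm, read 9.25, 9.37 and 9.17 in the 48 h controls, 8.65, 8.82 and 8.09 in the exposed arrays and 8.81, 8.99 and 9.06 in the 72 h controls (-0.74 ± 0.16 from the 48 h controls, adjusted p = 0.0138). The exposed arrays did not overlap the 48 h controls. Bmp5, Bmp2 and Bmp7 fell by 0.62, 0.59 and 0.44 on the log2 scale, and the BMP-responsive homeobox gene Msx2 by 0.91. The inhibitor of differentiation Id2 rose by 0.50, and Id1 and Id3 differed by -0.04 and 0.18. Without exposed replicate 3, 3 of these genes were called in place of 6, and in the fit of the 6 arrays alone 1 was. Bmp4 lost its call without exposed replicate 3 or control replicate 2, Bmp7 without exposed replicate 3 or control replicate 3, and Bmp2 without exposed replicate 3, control replicate 2 or control replicate 3.

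Of 17 TGF-beta and Nodal genes 3 rose and 3 fell (over all genes 1.91% rose and 2.29% fell). Besides Tdgf1, the ligand Tgfb1 fell by 0.64 and the SMAD co-repressor Skil by 0.28 on the log2 scale, whereas the receptors Acvr2a and Tgfbr2 and the latency protein Ltbp1 rose by 0.36, 0.37 and 0.49. When any one of the arrays was left out, 1 to 3 of the 17 genes were called. Skil lost its call in each of these leave-outs, Tgfb1 without exposed replicate 3 (adjusted p = 0.0655) or control replicate 2 or 3, and Acvr2a in all but that of exposed replicate 2. Tgfbr2 passed only without exposed replicate 3, and Ltbp1 only without that array or control replicate 1. Of 13 Wnt target genes, 3 fell and 1 rose (over all genes 1.91% rose and 2.29% fell). Those that fell were Lef1 (-0.96), the stem cell receptor Lgr5 (-0.90) and the inhibitor Dkk1 (-0.43), and the receptor Fzd7 rose (0.44). The call of Dkk1 was lost without exposed replicate 2 or control replicate 1. Among insulin-like growth factor genes, 2 of 11 rose and 1 fell (over all genes 1.91% rose and 2.29% fell), and 6 were called without exposed replicate 3. Igfbp5, a binding protein, read 9.58, 9.54 and 9.44 in the 48 h controls and 10.92, 10.73 and 10.47 in the exposed arrays (1.19 ± 0.09, adjusted p = 1.69e-06), with a control step of 1.26. Igf1 rose by 0.50, a call kept only without exposed replicate 3 among the leave-outs, and Igfbp2 fell by 0.52 on the log2 scale.

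Of 17 genes of the cereblon ligase and its known substrates, 3 rose and 2 fell (over all genes 1.91% rose and 2.29% fell). The array reads RNA, so protein levels of substrates were not measured. Whether these proteins are substrates in the mouse cells used was not tested. Transcripts of the listed substrates Sall4 and Zbtb16 (Plzf) changed by -0.39 ± 0.07 (adjusted p = 0.00249) and 0.56 ± 0.08 (adjusted p = 0.000615), with control 72 h minus control 48 h differences of -0.46 and 0.46. Meis2 rose by 0.62 and the lactate transporter Slc16a1 fell by 0.47 on the log2 scale, with control differences of 0.81 and -0.51. Crbn, cereblon itself, read 8.31, 8.39 and 8.42 in the 48 h controls and 8.23, 8.02 and 8.18 in the exposed arrays, without being called (-0.23 ± 0.09, adjusted p = 0.193), and its control difference was -0.13. Among 20 limb development genes 1 rose and 4 fell (over all genes 1.91% rose and 2.29% fell). Besides Sall4, Bmp4 and Msx2, Fgf10, a limb bud growth factor, fell by 0.53 on the log2 scale, with a control difference of -0.53.

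The genes Sdhc, Dexi and Bod1, chosen because they differed between exposed and control arrays at 24 h, where both groups carry the tag, were not called between exposed 72 h and control 48 h arrays. Sdhc, a membrane subunit of succinate dehydrogenase, differed by -1.27 at 24 h and had a mean of 7.36 in the exposed arrays of 48 h. At 72 h of exposure it read 8.74, 8.55 and 8.41, against 8.69, 8.71 and 8.78 in the 48 h controls (-0.16 ± 0.08, adjusted p = 0.365). Dexi and Bod1, which differed by 1.01 and -1.01 at 24 h, differed by 0.14 (adjusted p = 0.465) and 0.30 (adjusted p = 0.0858). Of the 8 succinate dehydrogenase genes 0 were called. Of the neural genes, Olig2, Neurod4, Dcx and Hes5 had exposed minus control differences at 24 h of -0.46, 0.14, -0.01 and 0.06. The part of the tag in the 72 h values was not tested.

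In the lists of NRF2 antioxidant, p53 target, unfolded protein and mitotic genes, 1 of 16, 3 of 17, 1 of 17 and 1 of 19 members fell and 0 rose (2.29% of all genes fell). When any one of the arrays was left out, 0 or 1 of the p53 targets was called, and the call of the mitotic gene Ttk was lost without exposed replicate 2 or 3 or control replicate 1 or 2. The NRF2 gene Gclm lost its call without exposed replicate 1 or 3 or control replicate 2 or 3. Of 15 cholesterol synthesis genes 5 fell, among them Cyp51 by 0.32, Nsdhl by 0.29 and Lss by 0.33 on the log2 scale, with a median of -0.22. That count was 0 without control 48 h replicate 3, 1 without exposed replicate 2, 3 without control 48 h replicate 2, and 0 in the fit of the 6 arrays alone. Small nucleolar RNAs, a class of nuclear RNA, rose in 11 of 73 (median 0.09, 1.91% of all genes rose). The count was 1 to 4 when any of the 6 arrays was left out. The median exposed minus control difference of these RNAs at 24 h was 0.24. Of 67 ribosomal protein genes 1 fell (0 without exposed replicate 2 or control replicate 2, and 2 called without exposed replicate 3), and of 25 replication histones 0 were called. The part of nuclear RNA content in the other groups was not tested.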

How the data were processed

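Values are the log2 signals the authors deposited, 1 for each probe set on each array, from RMA (robust multi-array average) with Expression Console 1.3 of Affymetrix, which the submitters' processing notes name. The build behind the probe sets is not given here. Quantile-normalized values show changes relative to the other genes of an array. Of 41345 probe sets, 23521 had a single gene symbol, and a gene with several was represented by the one with the highest mean, leaving 22180 genes. limma 3.58.1 in R 4.3.3 fitted 1 mean per group over all 18 arrays (lmFit, contrasts.fit, eBayes), with 12 residual and 4.35 prior degrees of freedom, two-sided tests, Benjamini-Hochberg adjustment over all genes and a threshold of 0.05. The scripts were tested on simulated data. The comparison and the 35 gene lists were chosen with earlier results of these data known. The rule for named genes took the 10 largest called changes in each direction without overlap of the groups, and, from each list, at most 3 called members (or that of smallest p). Further list members and the genes of lowest p were chosen after their values were seen. Samples with the same replicate number did not deviate together beyond r = 0.059 between the exposed 72 h and control 48 h groups, so the numbers were not taken as pairs. Alternatives were cyclic loess, a median signal filter, other treatment of probe sets, array weights, a trended robust prior, a fit of the 6 arrays alone, a replicate block and leaving out each array.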

Additional observations from a re-analysis of the deposited data

How the results depend on the processing

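Called changes of single genes named by the rule kept their direction under the alternatives run. For the largest changes, named only where the groups did not overlap, leaving out an array could not have reversed the direction. The count of 932 genes became 351 (147 up and 204 down) when only the 6 arrays compared were fitted, which leaves fewer arrays to estimate the spread. That fit called 0 of the sarcomere, 2 of the endothelial, 3 of the neural and 6 of the streak genes. Leaving out single arrays gave 481 to 750 genes. The replicate block gave 887 genes, 414 of them up, and every exposed 72 h array correlated best with the 48 h control of its own number, at r = 0.048 to 0.059, a hint from the data and not from the design. Counts of the other settings ran from 686 (all probe sets) to 1316 (trended robust prior). Among lists, the signal filter gave 10 called visceral endoderm genes in place of 5 and 8 cholesterol genes in place of 5. It gave 3 called endothelial genes in place of 9. Emcn, Erg, Sox18, Tek, Tie1 and Plvap lay below the median signal and were not run. Of the 110 called single genes run under this filter, 0 lost their call. Of 1795 single-gene values under alternatives, 296 no longer passed the threshold and 9 passed newly. The counts of genes between and outside the control stages were 0 throughout, and neither class was run with the 6 arrays alone, which hold no 72 h controls. The difference in course position ran from 0.246 to 0.29 over other gene sets and scalings and from 0.233 to 0.318 when arrays were left out, with an exact permutation p of 0.2 without control 48 h replicate 3. No detection values were used, so how far dim signals stood above background is unknown.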

Other observations

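Further genes of neural and neural crest lineages were higher in the exposed 72 h arrays than in the 48 h controls. They were chosen after their values were seen. The POU factors Pou3f2 and Pou3f3 rose by 1.12 ± 0.27 (limma's adjusted p = 0.0246) and 1.13 ± 0.18 (adjusted p = 0.00168). Pou3f2 was not called without exposed replicate 3 (0.76, adjusted p = 0.0986) or any one of the 48 h controls. The nuclear receptor Nr2f1 rose by 1.12 and the long non-coding RNA Miat by 1.07, the latter not called without control replicate 1 or 3. Control 72 h minus control 48 h differences of Pou3f2, Pou3f3, Nr2f1 and Miat were 0.37, 0.50, 0.58 and 0.47. The exposed arrays of each overlapped the 72 h controls, and none of these genes was called against them. The neural crest factor Tfap2b rose by 1.06 and the endothelin receptor Ednrb by 1.32, where the control 72 h minus control 48 h differences were 0.64 and 1.16. Their exposed 72 h minus control 72 h differences were 0.43 ± 0.21 and 0.16 ± 0.14, neither called. Elavl3, an RNA-binding protein of neurons, rose by 0.74, and was not called without exposed replicate 3 or control replicate 2. Stmn2, a microtubule regulator of neurons, went the other way and fell by 1.13 on the log2 scale, with a control difference of -1.57. Among falling genes outside the lists, the imprinted gene Phlda2 and the Wnt co-activator Rspo3 changed by -1.31 and -1.38, with control differences of -1.01 and -1.24. Across all 22180 genes, the exposed 72 h minus control 48 h difference correlated with the control change from 24 h to 72 h at r = 0.481 (Spearman's rho 0.311), and these differences share no arrays. Genes are not independent replicates, and all arrays share the normalization.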
